A study of Mus musculus with 22 samples.

Results

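The genes described here encode the nuclear subunits of respiratory complexes II, III and IV and of ATP synthase (complex V), together with the electron carrier cytochrome c. They were taken by symbol, not by any measured value: the protein-coding genes named Sdha, Sdhb, Sdhc, Sdhd, Cyc1 or Cycs, and those whose symbols begin with Uqcr, Cox4i, Cox5, Cox6, Cox7, Cox8 or Atp5. The deposited table held 50 such genes among 55487, and 47 of the 15082 genes with enough counts to be tested. The tested members were 4 of complex II, 9 of complex III, 16 of complex IV, 17 of complex V and Cycs. The other 3 were Cox7b2 with at most 3 counts in a library, Cox8c with at most 1, and a second gene called Atp5o (ENSMUSG00000116933) with 0 counts in every library.

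Complex II oxidises succinate and passes the electrons to ubiquinone, complex III moves them on to cytochrome c, and complex IV gives them to oxygen. Complexes III and IV pump protons across the inner mitochondrial membrane, and complex V uses their return flow to make ATP. All subunits of complex II are encoded in the nucleus, while complexes III to V also hold subunits of the mitochondrial genome. Some complex IV subunits exist as an isoform of striated muscle and an isoform found in most tissues. Thyroid hormone is known to raise the oxidative capacity of muscle.

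Poly-A RNA of the soleus, a calf muscle with both slow and fast fibres, was sequenced from male mice in 22 libraries. The genotypes were WT and TRa1 KO, a knockout labelled for thyroid hormone receptor alpha 1, and mice of each genotype received T3 (triiodothyronine, the active hormone) or vehicle. There were 5 WT vehicle, 6 WT T3, 4 KO vehicle and 7 KO T3 libraries, and the comparisons ask how the members changed with T3 and whether this depended on the receptor. The labels give neither the ages nor the dose and duration of T3, nor whether receptor loss was limited to muscle. Whether the libraries of a group are different mice is not stated either, and the p-values then cover only the variation among the libraries at hand.

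Libraries held 14542548 to 75766782 counts. Thra, the receptor gene, lay at 70.8 to 90.6 CPM (counts scaled to a common library size) in WT vehicle and at 44.2 to 53.6 in KO vehicle, so those groups did not overlap, although the gene was not called between them (Benjamini-Hochberg adjusted p = 0.0979, from the quasi-likelihood test of edgeR). Under T3 the ranges overlapped, at 19.3 to 58.9 CPM in WT and 21.2 to 39.8 in KO (log2 fold change -0.39, adjusted p = 0.271), and Thra was called lower with T3 in WT (-0.86, adjusted p = 0.016). The gene's level thus separated the genotypes under vehicle alone. Counts per gene cannot show which exons the knockout lacks. Fibre markers differed by genotype. The summed level of 8 slow fibre markers was 23040 to 34410 CPM in WT vehicle and 44950 to 52230 in KO vehicle, and that of 10 fast fibre markers was 31420 to 64700 in WT vehicle and 11660 to 25880 in KO vehicle. In whole muscle, fewer fibres or cells of a type and less RNA per cell cannot be told apart.

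WT T3 replicate 5 stood apart for the members before any comparison. They took 4.28% of its counts, against 1.87% to 2.92% in the other 21 libraries. Of the 47 tested members, 45 were higher there than in every other WT T3 library and 41 were higher than in each of the other 21. The median member was at 2.08 times the mean of the other 5 WT T3 libraries, from 0.756 times for Uqcrc2, a core protein of complex III, to 3.96 times for Atp5e, the epsilon subunit of ATP synthase. Short transcripts in general were higher in this library. The 1746 tested genes under 1500 bases lay a median of 0.67 above their mean over all libraries on the log2 scale, the members 1.09 and all genes 0.048. The tested members had a median length of 1675 bases, against 4163 for all tested genes. Transcripts of the mitochondrial genome made up 11.2% of its counts, the smallest share of the 22 libraries. The main results are therefore given with and without this library.

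Markers of several other cell types were also high in WT T3 replicate 5. Summed adipocyte markers were at 151 CPM, the highest of all 22 libraries, where the next WT T3 library had 37.1. Macrophage markers summed to 98.8 CPM against 59.2, fibroblast and matrix markers to 716 against 582.5, endothelial markers to 824 against 778 and erythroid markers to 333 against 182. Each of these sums was the highest of the WT T3 group. Smooth muscle and pericyte markers went the other way, with a sum of 511 CPM, the lowest of that group. The part of any of these markers in the members' levels was not tested.

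**Figure D1:**
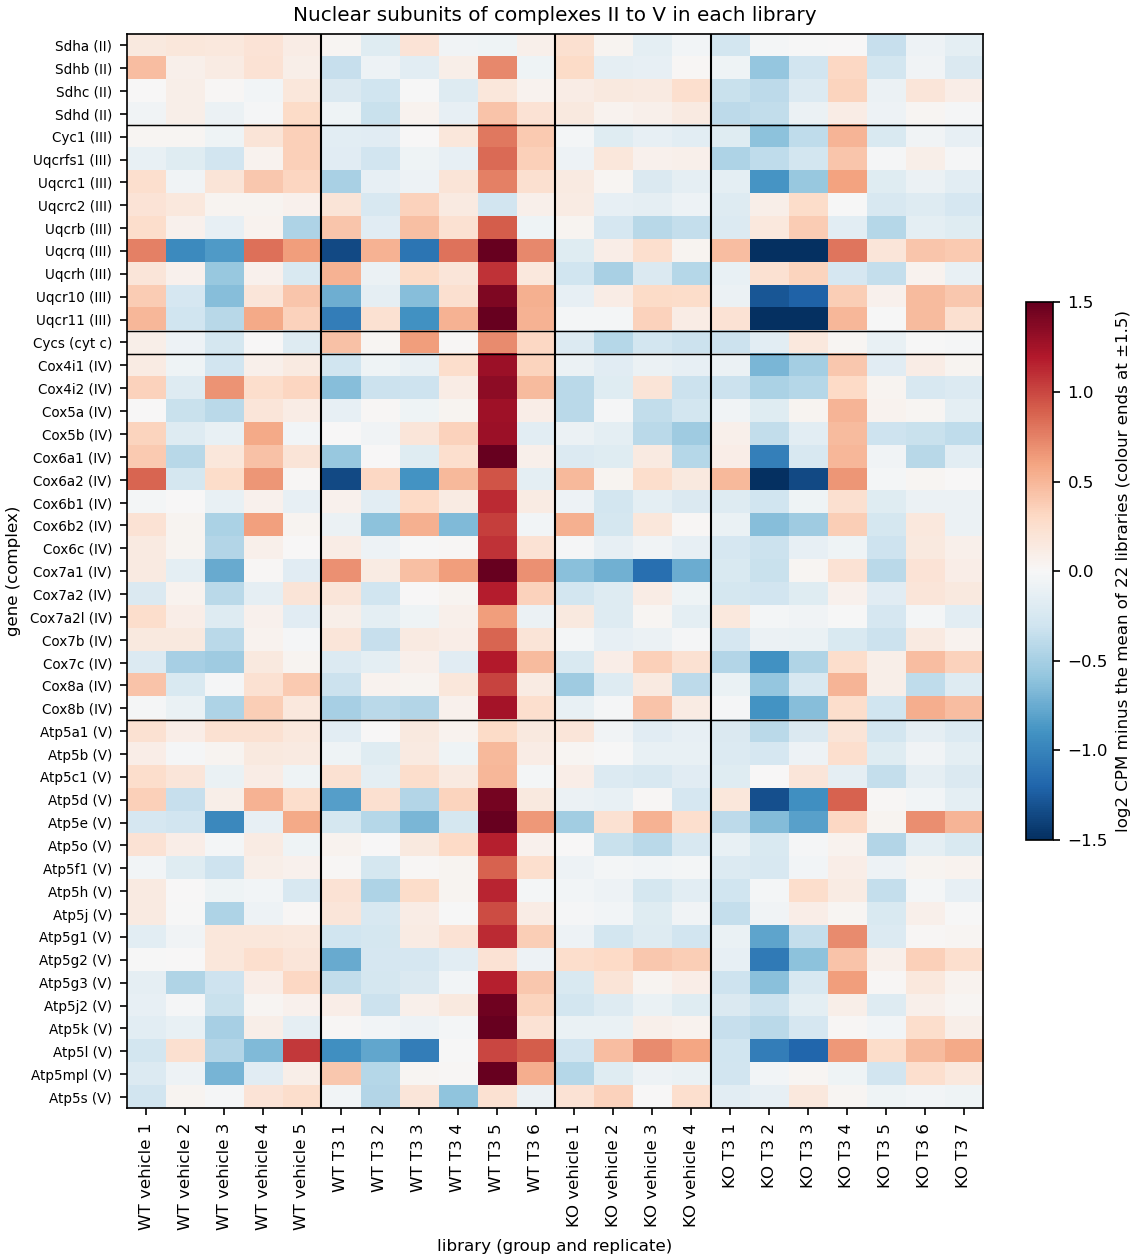
Log2 CPM of each of the 47 tested members (rows, grouped by complex) in each of the 22 libraries (columns, grouped by genotype and treatment), as the difference from the gene's mean over all libraries. Colour ends at 1.5 in either direction. The column of WT T3 replicate 5 is the darkest red, and Cox7a1 is blue in all 4 KO vehicle libraries.

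The heatmap of the members shows a second pattern, in members of complexes III, IV and V in 4 T3 libraries. Uqcrq, a small accessory subunit of complex III, lay at 46.3 and 58.0 CPM in KO T3 replicates 2 and 3 and at 92.6 and 111 CPM in WT T3 replicates 1 and 3. It was also low, at 123 and 132 CPM, in WT vehicle replicates 2 and 3, and above 200 CPM in all remaining libraries. Within the KO T3 group its highest value was 8.99 times its lowest. With Uqcrq, 6 members had their 4 lowest values in KO T3 replicates 2 and 3 and WT T3 replicates 1 and 3, and the others were Uqcr11, Cox6a2, Atp5d, Atp5g2 and Atp5l. The share of all genes with their 4 lowest values there is not given here. GC content was 59.3% for Atp5d, 59.2% for Uqcr11, 57.1% for Atp5g2, 52.8% for Cox6a2 and 51.7% for Uqcrq. It was 41% for Atp5l, below the median of 50.1% over the tested members. In these 4 libraries the members' deviations were lower at higher GC content of the transcript, with Spearman's rho of -0.57 and -0.55 in KO T3 and of -0.49 and -0.38 in WT T3, over 47 members that share a library. In the other 18 libraries rho ran from -0.33 to 0.54, so relations of like size and opposite sign occurred elsewhere. For these genes the spread within groups was wide, and the part of GC content in it was not tested. Over all 47 members the median coefficient of variation within groups was 16.6%, computed without WT T3 replicate 5.

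Per base of gene length, the most abundant members were muscle isoforms of complex IV and the F1 alpha and beta subunits of ATP synthase. Over the 22 libraries Cox6a2 averaged 1386 CPM per kilobase, Atp5a1 (F1 alpha) 1092, Cox8b 1027 and Atp5b (F1 beta) 947. Cox7a1 had rank 6 at 579 CPM per kilobase and Cycs rank 40 of 47 at 73.9. The least abundant tested members were Cox6b2, an isoform known from testis, at 0.263 CPM per kilobase, Atp5l at 2.63 and Cox4i2, an isoform known from lung, at 2.72. Another 8 genes whose names match the rule are annotated as pseudogenes and were left out. Reads that members share with such copies may have been lost or divided in counting, so the levels of members with copies are uncertain.

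T3 in WT soleus raised Cox7a1 and Cycs, and no other member was called. Called here means an adjusted p below 0.05 over all tested genes, and 3.31% of the 15082 genes were called in this comparison. Cox7a1 encodes the striated muscle isoform of subunit COX7A of complex IV. Without WT T3 replicate 5 only Cox7a1 was called, against 3.75% of 15004 genes. A further 6 members, among them Uqcrh, Atp5k and Atp5mpl, had an unadjusted p under 0.05 and missed the adjusted threshold. The share of all genes with such a p is not given here.

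Cox7a1 (ENSMUSG00000074218, chromosome 7, 30184144 to 30186078 on mm10) was at 163 CPM in the lowest of the 5 WT vehicle libraries and at 245 to 301 CPM in the other 4. In WT T3 its lowest value was 299 CPM, its median 434.5 and its highest 1086, in replicate 5. The groups overlapped by the lowest T3 library and the highest vehicle library alone. Its log2 fold change was 1.05 ± 0.24 (SE), or 2.07-fold, with a Benjamini-Hochberg adjusted p of 0.0161 from edgeR's quasi-likelihood test. Without replicate 5 it was 0.70 ± 0.16, or 1.62-fold, with an adjusted p of 0.013. The WT T3 mean was 513 ± 286 CPM (SD, n = 6) with that library and 398 ± 61.7 (n = 5) without it. Leaving out WT vehicle replicate 3, the lowest of its group, ended the call (adjusted p = 0.0624), while it held without each of the other 21 libraries. It was also lost with only the WT groups in the fit (1.04, adjusted p = 0.086) and with 5 T3 libraries left out together, KO replicates 2 and 3 and WT replicates 1, 3 and 5 (0.66, adjusted p = 0.0582).

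Cycs (ENSMUSG00000063694, chromosome 6, 50562563 to 50566538) encodes cytochrome c of body tissues. It was at 261, 233, 205, 246 and 215 CPM in WT vehicle. In WT T3 it ranged from 249.7 over a median of 319.7 to 402 CPM. Values in 4 of the 6 T3 libraries lay above every vehicle value, and the other 2 lay inside the vehicle range. Cycs rose by 0.47 ± 0.12 on the log2 scale (edgeR's quasi-likelihood test, adjusted p = 0.0337), and it had 0.40 ± 0.12 without replicate 5, which was no longer a call (adjusted p = 0.0519). It was not called either without WT vehicle replicate 2, 3 or 5 or WT T3 replicate 1 or 3 (adjusted p up to 0.111). Of the 12 other alternatives 7 called it. The call was lost without the count filter, with only the WT groups, with the gene length offset without replicate 5, with the offset for GC content and gene length, and with the 5 T3 libraries left out, where the log2 fold change was 0.22 (adjusted p = 0.317).

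The bases before the start sites are given for Cox7a1, its widely expressed counterpart Cox7a2, and Cycs, and their part in the calls was not tested. They are the 250 bases upstream of the start in RefSeq (GRCm38.p6), read 5′ to 3′ on the gene's strand, with matches to the searched motifs in capitals. Cox7a1 is at chr7:30183921-30184170 (plus strand), Cox7a2 at chr9:79759854-79760103 (minus strand) and Cycs at chr6:50566570-50566819 (minus strand). The deposited table starts Cox7a1 and Cox7a2 slightly upstream of RefSeq, so the last bases of both windows lie in its gene.
Cox7a1: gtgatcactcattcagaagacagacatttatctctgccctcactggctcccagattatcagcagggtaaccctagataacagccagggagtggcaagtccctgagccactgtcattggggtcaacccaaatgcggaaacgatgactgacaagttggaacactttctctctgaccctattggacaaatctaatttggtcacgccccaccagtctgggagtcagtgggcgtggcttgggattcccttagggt
Cox7a2: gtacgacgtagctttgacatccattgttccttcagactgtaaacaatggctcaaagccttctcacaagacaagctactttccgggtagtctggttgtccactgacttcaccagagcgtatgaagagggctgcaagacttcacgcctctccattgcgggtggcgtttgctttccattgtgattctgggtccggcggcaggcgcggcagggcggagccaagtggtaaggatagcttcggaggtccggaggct
Cycs: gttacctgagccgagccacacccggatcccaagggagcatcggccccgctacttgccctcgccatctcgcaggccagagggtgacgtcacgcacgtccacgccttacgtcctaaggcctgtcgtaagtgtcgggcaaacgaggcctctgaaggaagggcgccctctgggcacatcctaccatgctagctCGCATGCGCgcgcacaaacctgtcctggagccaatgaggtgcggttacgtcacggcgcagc

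The motifs searched, on both strands, were GCGCANGCG for NRF1 and CCGGAAG for ETS factors, both classes known to act on respiratory genes. TCAAGGTCA was used for estrogen-related receptors and AGGTCA, which it contains, for the half-site of nuclear receptors such as the thyroid hormone receptors. RefSeq windows were at hand for 37 promoters of 34 members. NRF1 letters occurred in 24.3% of them, against 5.16% of all 32851 promoters, and ETS letters in 24.3% against 6.91%. The half-site occurred in 13.5% against 14.0%, and the estrogen-related receptor motif in 1, that of Atp5g3, or 2.7% against 0.387%. The 32851 promoters were not limited to genes tested in soleus, while the member windows were. Whether these shares are particular to the members was therefore not tested. The Cycs window holds an NRF1 match 61 bases before the start, on the strand opposite to the gene. The windows of Cox7a1 and Cox7a2 hold none of these letter strings, which says nothing of sites of another form or position.

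Across the whole set, the direction of the T3 difference in WT turned on replicate 5. With it, 36 members had a log2 fold change above 0 and 11 below, with a median of 0.23, against 0.011 over all tested genes. Without it, 23 were above 0 and 24 below, with a median of -0.015, against 0.001 over all genes. The median of the 4 complex II genes was below 0 either way, at -0.13 with the library and -0.15 without. For complex III it went from 0.23 to -0.043, for complex IV from 0.23 to 0.004 and for complex V from 0.27 to 0.017.

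By role, the redox subunits of complex III showed little: Uqcrfs1, the Rieske iron-sulphur protein, had a log2 fold change of 0.17 ± 0.18 with replicate 5 and -0.015 ± 0.15 without. Uqcrh, the hinge subunit that aids docking of cytochrome c, had 0.48 ± 0.18 and 0.31 ± 0.15 (edgeR, adjusted p = 0.141 and 0.266). In complex V, Atp5mpl, a small proteolipid of the membrane part, had 0.69 ± 0.24 and 0.35 ± 0.16, and Atp5k, subunit e, had 0.55 ± 0.22 and 0.18 ± 0.12. Neither was called. Atp5a1, the F1 alpha subunit, had -0.10 ± 0.11 and -0.14 ± 0.10.

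The complex II subunits are the flavoprotein Sdha, the iron-sulphur protein Sdhb and the anchors Sdhc and Sdhd, and none was called in any comparison. Sdha was at 1454, 1474, 1470, 1511 and 1418 CPM in WT vehicle. In WT T3 it ranged from 1156 over a median of 1301 to 1515 CPM. In KO vehicle it was at 1548, 1350, 1184 and 1275 CPM, and in KO T3 it ranged from 1033 over 1245 to 1320. WT T3 replicate 3 and KO vehicle replicate 1 lay above the narrow WT vehicle range, and every other WT T3 and KO library lay below it. With T3, Sdha had log2 fold changes of -0.15 ± 0.098 in WT and -0.15 ± 0.10 in KO (edgeR's quasi-likelihood test, adjusted p = 0.445 and 0.594), and of -0.13 ± 0.096 and -0.17 ± 0.095 without WT T3 replicate 5. In KO all 4 subunits were below 0 with T3, with a median of -0.18.

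**Figure D2:**
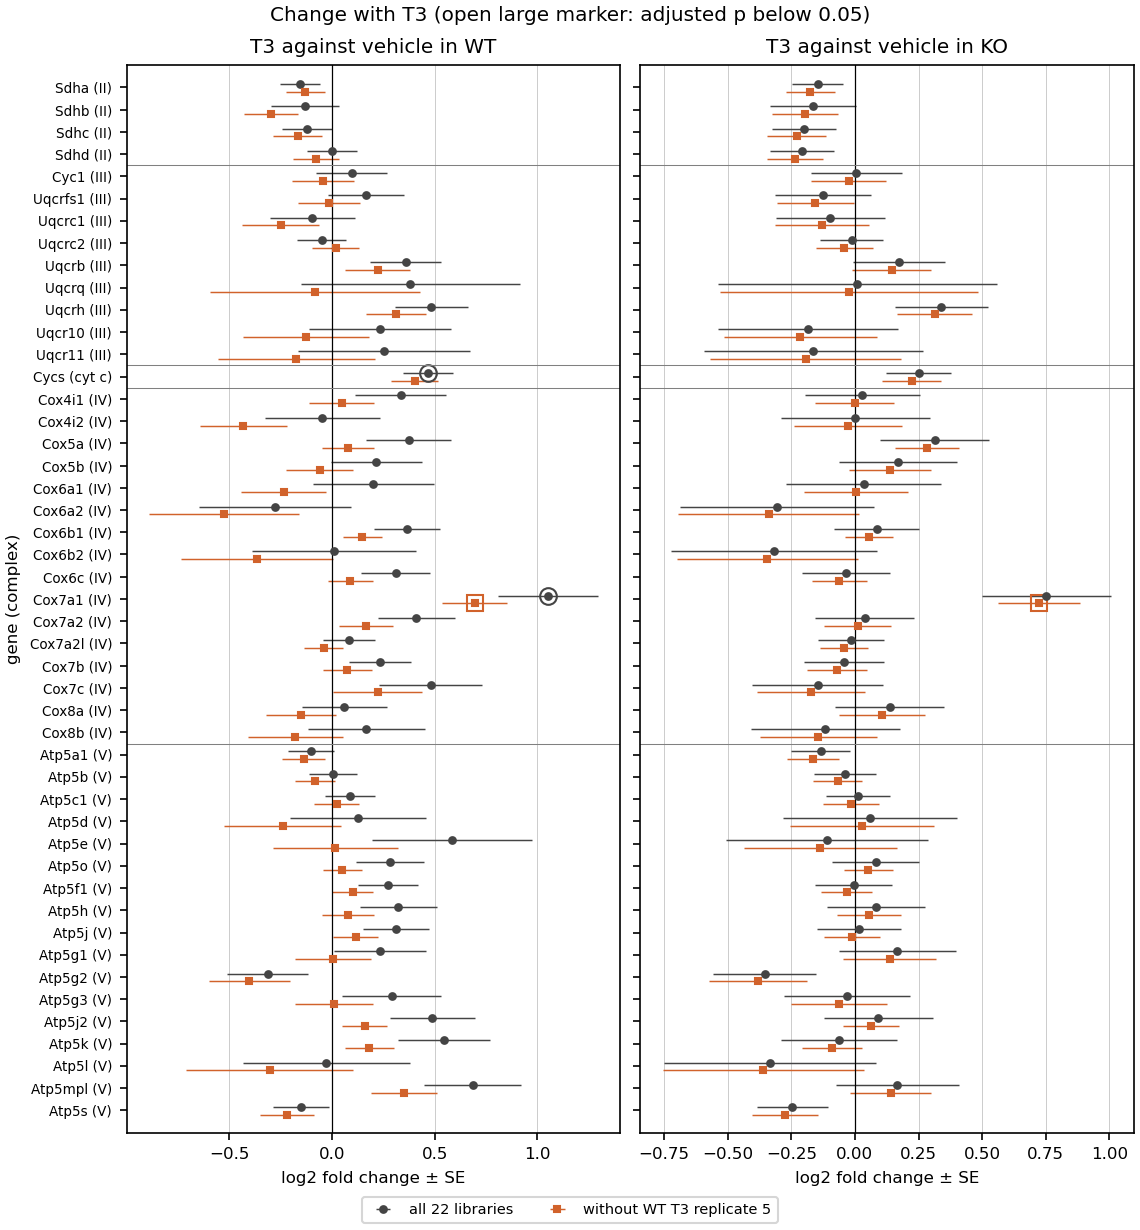
Log2 fold change (± SE) of each tested member with T3 against vehicle, in WT (left) and KO (right), from the fit of all 22 libraries (dark circles) and without WT T3 replicate 5 (orange squares); large open markers show an adjusted p below 0.05. In WT the squares lie to the left of the circles for most members, and Cox7a1 is farthest to the right in both panels.

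T3 in KO soleus gave 0 called members with all libraries, where the quasi-likelihood test of edgeR called 2.72% of all genes and 1 member, Cox7a1, had an unadjusted p under 0.05. DESeq2 called 0 members, against 4.38% of all genes, and limma voom 1, again Cox7a1, against 9.76%. Without WT T3 replicate 5 Cox7a1 was called in KO as well, against 4.64% of all genes. That library is in neither KO group. Leaving it out changed the genes kept, the scaling, the estimate of the spread that all groups share and the adjustment. Which of these mattered was not tested.

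In the KO vehicle libraries Cox7a1 was at 178, 167, 125.5 and 164 CPM. In KO T3 it ranged from 207.5 over a median of 281 to 320.5 CPM. Every KO T3 library was above every KO vehicle library. The log2 fold change was 0.75 ± 0.26, or 1.69-fold, with an edgeR adjusted p of 0.13, and 0.72 ± 0.16 with an adjusted p of 0.0104 without WT T3 replicate 5. Of the 12 alternatives to the processing beside leaving out single libraries, 6 called it, with log2 fold changes from 0.73 to 0.79.

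Cycs in KO was at 213, 182, 202.5 and 197 CPM under vehicle and at 196 to 274 under T3, with a median of 244. Its log2 fold change of 0.25 ± 0.13 was not called (edgeR's quasi-likelihood test, adjusted p = 0.398), nor was the 0.22 ± 0.12 without WT T3 replicate 5 (adjusted p = 0.331). Its vehicle and T3 ranges overlapped. The members as a set were divided, with 22 above 0 and 25 below and a median of -0.013, against 0.020 over all genes. Without replicate 5 there were 16 above and 31 below with a median of -0.041, and with scaling by total counts alone it turned to 0.030, where that of all genes was 0.061. Complexes III, IV and V had medians of -0.013, 0.015 and -0.005, and of -0.041, -0.014 and -0.033 without replicate 5.

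The T3 responses of WT and KO were compared directly by the interaction of genotype and treatment. No member was called for a difference by edgeR's quasi-likelihood test, none had an unadjusted p under 0.05, and DESeq2 and limma voom called 0. Of all genes 0.00663% were called, which is 1 gene, and 0.00666% without replicate 5. For Cox7a1 the difference of the KO from the WT response was -0.30 ± 0.34 on the log2 scale, and 0.029 ± 0.22 without replicate 5. For Cycs it was -0.22 ± 0.17 and -0.18 ± 0.16. With standard errors of this size the values do not show that the responses were equal. The median of the members was -0.21 with replicate 5 and -0.038 without it.

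**Figure D3:**
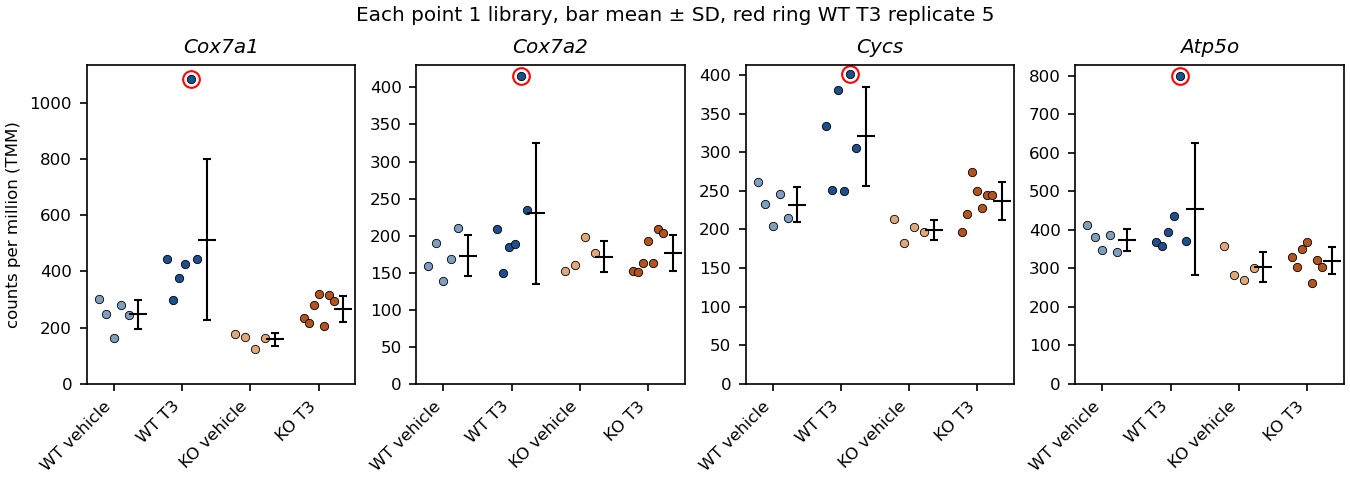
CPM of Cox7a1, Cox7a2, Cycs and Atp5o in each library (points) of the 4 groups, with mean and SD (bars), on linear axes from 0; the red ring marks WT T3 replicate 5. Cox7a1 is lowest in KO vehicle and higher with T3 in both genotypes, and the ringed library is the highest of all 22 for each of the 4 genes.

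KO against WT under vehicle gave 0 called members, against 3.08% of all genes. Cox7a1 alone had an unadjusted p under 0.05. DESeq2 called 0 members, against 4.83% of all genes. Limma voom called Cox7a1, Atp5o and Atp5a1 lower in KO, 3 of 47 members, against 13.1% of all genes. Without WT T3 replicate 5, a library outside both groups, edgeR's quasi-likelihood test called Cox7a1 lower in KO, against 5.25% of all genes. Its log2 fold change was -0.64 ± 0.27 (adjusted p = 0.249) with all libraries and -0.62 ± 0.17 (adjusted p = 0.0344) without that one. The KO vehicle mean was 159 ± 22.8 CPM (SD, n = 4) and the WT vehicle mean 247 ± 52.6 (n = 5). Only WT vehicle replicate 3, at 163 CPM, reached into the KO range.

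Over the set, 34 members lay below 0 and 13 above in KO under vehicle, with a median of -0.12 against -0.021 over all genes. Without replicate 5 there were 30 below and 17 above, with a median of -0.099 against 0.001. Scaling by total counts alone moved the median of all genes by more than 0.1, from -0.021 to 0.13, and that of the members from -0.12 to 0.030, so the sign of the members' median flipped while it stayed 0.10 below that of all genes. Atp5g2, one of the genes for the c ring of ATP synthase, was the member whose groups did not overlap, by a narrow gap. The share of all genes without overlap is not given here, so nothing is read from this. It was at 31.7 to 38.0 CPM in WT vehicle and at 38.4 to 42.3 CPM in KO vehicle, with a log2 fold change of 0.21 ± 0.22 (0.24 ± 0.21 without replicate 5) that was not called. It was named after its values were seen.

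KO against WT under T3 gave the most called members. Cox7a1, Cycs and Atp5o were lower in KO, 3 of 47 or close to the 5.57% of all genes called, and none was higher. Without WT T3 replicate 5 the calls were Cox7a1 and Cycs, against 7.66% of all genes. The T3 comparison in WT and this comparison share the WT T3 libraries, and so are not independent of each other. The comparison under vehicle shares the WT vehicle libraries with the T3 comparison in WT, and the same holds for the KO groups.

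Cox7a1 fell by 0.94 ± 0.22 on the log2 scale, to 0.521 of the WT level (edgeR, quasi-likelihood, adjusted p = 0.0104). Without replicate 5 it fell by 0.59 ± 0.15, to 0.665 (adjusted p = 0.0128), and the call held without each of the 22 libraries in turn. KO T3 at 207.5 to 320.5 CPM overlapped WT T3, whose lowest library was at 299 CPM, through its 2 highest libraries. It was not called with the same 5 T3 libraries left out (-0.52, adjusted p = 0.128). The KO T3 mean was 267 ± 47.0 CPM (SD, n = 7), beside 247 ± 52.6 (n = 5) in WT vehicle, a pair that was not tested.

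Cycs fell by 0.44 ± 0.11 in KO under T3 (edgeR's quasi-likelihood test, adjusted p = 0.0182) and by 0.38 ± 0.11 without replicate 5 (adjusted p = 0.0289). It was called without each of the 22 libraries in turn and in 9 of the 12 other alternatives. The call was lost with the 5 T3 libraries left out (-0.22, adjusted p = 0.275), with total counts alone (-0.29, adjusted p = 0.117) and with only the T3 groups in the fit (-0.46, adjusted p = 0.0668). KO T3 libraries reached 274 CPM and WT T3 libraries began at 249.7, so the ranges overlapped.

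Atp5o (ENSMUSG00000022956, chromosome 16, 91925214 to 91931687) encodes the peripheral stalk protein OSCP, which links the catalytic head of ATP synthase to the membrane part. It was at 412, 381, 348.5, 387 and 341 CPM in WT vehicle and at 357, 283, 269 and 302 in KO vehicle. In WT T3 it ranged from 358 over a median of 382 to 800.4 CPM, and in KO T3 from 262 over 321 to 368 CPM. Apart from replicate 5, the WT T3 libraries spread over much the same values as WT vehicle. Under T3 its log2 fold change in KO was -0.51 ± 0.15 (edgeR's quasi-likelihood test, adjusted p = 0.0486), and -0.28 ± 0.089 without replicate 5, no longer a call (adjusted p = 0.0538). It was also not called without WT vehicle replicate 2, 3 or 5, WT T3 replicate 4 or KO T3 replicate 1, 2, 5, 6 or 7 (adjusted p up to 0.108), nor in 4 of the 12 other alternatives (adjusted p up to 0.144). Under vehicle it was -0.31 ± 0.18, and -0.28 ± 0.10 without replicate 5, not called (adjusted p = 0.496 and 0.123). The second Atp5o gene spans 91684398 to 91926982 on the same chromosome and strand, and the spans overlap. Whether exons of both genes lie in the shared stretch was not checked, so whether reads were lost there is not known.

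Over the set, 44 members lay below 0 and 3 above in KO under T3, with a median of -0.33 against -0.001 over all genes, and 18 had an unadjusted p under 0.05. With total counts alone the medians were -0.19 and 0.156. Without replicate 5 the median was -0.11 against 0.008, with 36 below and 11 above and 6 with an unadjusted p under 0.05. The share of all genes with such a p is not given here, so whether 18 or 6 exceeds it cannot be read. All 16 complex IV genes lay below 0 with the library, and 12 without. The summed CPM gives the same contrast. Complex V summed to 13860 ± 3352 CPM (SD, n = 6) in WT T3 and 12540 ± 1033 (n = 5) without replicate 5, against 11550 ± 1519 (n = 7) in KO T3. Complex IV summed to 5763 ± 2456 CPM with it and 4783 ± 576.5 without it, against 4468 ± 896.6 in KO T3.

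**Figure D4:**
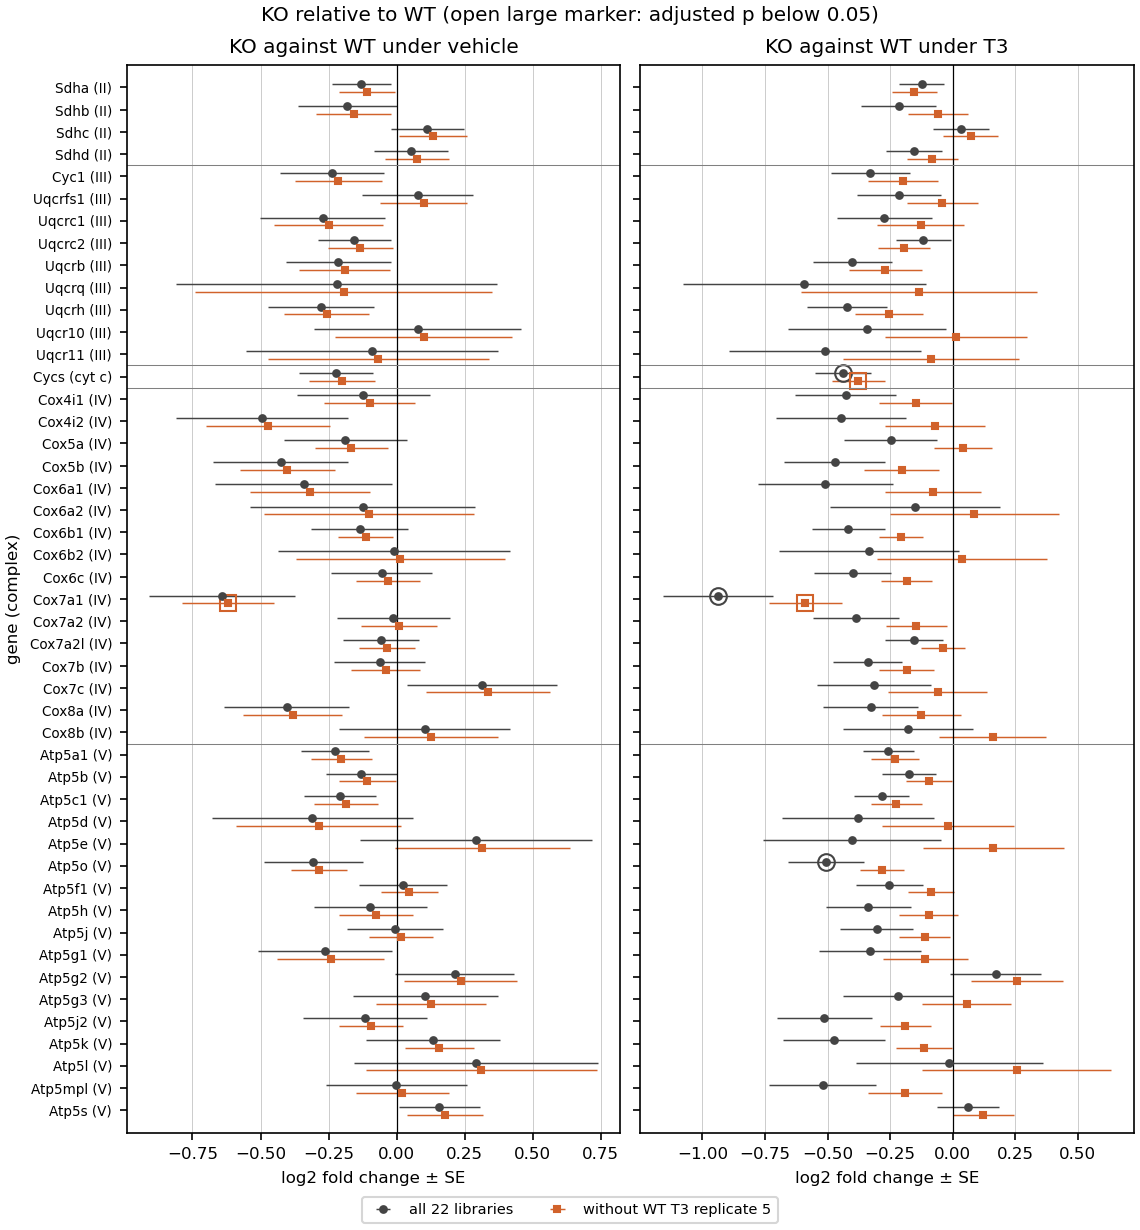
Log2 fold change (± SE) of each tested member in KO against WT, under vehicle (left) and T3 (right), from all 22 libraries (dark circles) and without WT T3 replicate 5 (orange squares); large open markers show an adjusted p below 0.05. Under T3 nearly all circles lie below 0, and most squares lie nearer to 0.

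Ratios of paired genes within a library need no scaling between libraries. Effects of gene length or GC content that differ by library need not cancel in them. Cox7a1 has 535 bases and 55% GC, and Cox7a2 has 944 bases and 47.2% GC. The part of length and GC content in the ratios was not tested. Of the pairs looked at, 3 set the striated muscle isoform of a complex IV subunit against the widely expressed one, and the fourth set 2 genes for the same c ring protein of ATP synthase against each other. Per base of gene length, Cox6a2 was at a median of 48.2 times Cox6a1 in WT vehicle and Cox8b at 16.6 times Cox8a. Cox7a1 stood at 2.31 times Cox7a2, and Atp5g1 at 0.292 times Atp5g3. The muscle isoform thus led in all 3 complex IV pairs, least so for COX7A.

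The Cox7a1 to Cox7a2 ratio rose with T3 in both genotypes. Cox7a2 (ENSMUSG00000032330, chromosome 9, 79755361 to 79759878) itself was not called in any comparison, with log2 fold changes with T3 of 0.41 ± 0.19 in WT, 0.17 ± 0.13 without replicate 5, and 0.038 ± 0.19 in KO. On the log2 scale the ratio was 1.32 ± 0.32 (SD, n = 5) in WT vehicle, 1.92 ± 0.16 (n = 6) in WT T3, 0.70 ± 0.39 (n = 4) in KO vehicle and 1.41 ± 0.15 (n = 7) in KO T3. As a ratio, WT vehicle libraries ran from 2.05 to 3.34 and WT T3 libraries from 3.35 to 4.61. KO vehicle libraries ran from 1.11 to 2.07 and KO T3 libraries from 2.24 to 3.05. In neither genotype did the vehicle and T3 ranges overlap, though in WT they nearly met.

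The difference with T3 was 0.60 on the log2 scale in WT, with a two-sided exact permutation p of 0.00433 and 0.0323 after Benjamini-Hochberg adjustment over 16 tests (4 pairs in 4 comparisons). In KO it was 0.71, with an exact permutation p of 0.00606, adjusted 0.0323. KO T3 lay 0.51 below WT T3 (a difference of -0.51, exact permutation p = 0.00117, adjusted 0.0186), again without overlap. Under vehicle the difference of KO from WT was -0.62 (exact permutation p = 0.0317, adjusted 0.102), and the ranges overlapped slightly. Without WT T3 replicate 5 the difference was 0.54 for T3 in WT (exact permutation p = 0.00794, adjusted 0.0423) and -0.45 for KO under T3 (p = 0.00253, adjusted 0.0404). The T3 difference in KO does not use that library and kept its p, adjusted to 0.0423. Leaving out any 1 of the 5 WT vehicle libraries ended the call for T3 in WT, and leaving out any 1 of the 11 KO libraries ended that for T3 in KO. Over all left-out libraries the difference stayed between 0.53 and 0.71 in WT and between 0.53 and 0.83 in KO. Fewer libraries raise the smallest p that an exact test can give.

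**Figure D5:**
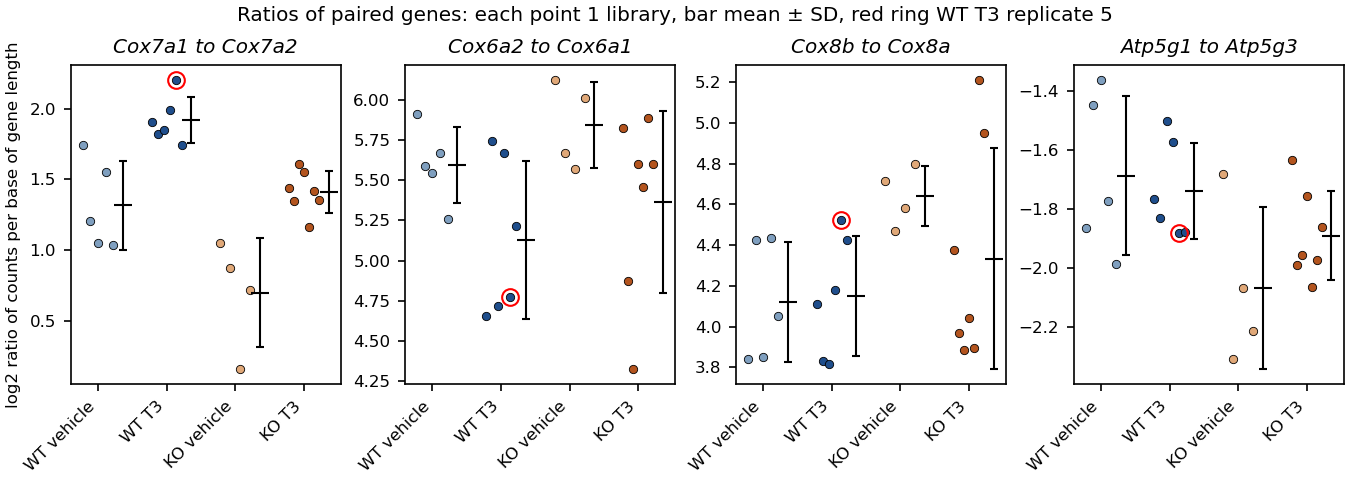
Log2 ratio of counts per base of gene length for 4 gene pairs in each library (points) of the 4 groups, with mean and SD (bars); the red ring marks WT T3 replicate 5. For Cox7a1 to Cox7a2 the T3 points lie above the vehicle points in both genotypes, and KO points lie lower than WT points under T3; in the other pairs T3 and vehicle points overlap.

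No other pair passed the adjusted threshold. Cox6a2 to Cox6a1 had a difference with T3 of -0.47 in WT and -0.48 in KO (exact permutation p = 0.0996 and 0.115, both adjusted 0.205), with the T3 libraries of both groups widely spread. Cox8b to Cox8a was higher in every KO vehicle library than in any WT vehicle library, by 0.52 on average (exact permutation p = 0.0159, adjusted 0.0635). Of its 2 genes neither was called. Atp5g1 to Atp5g3 differed between groups by -0.38 to 0.18.

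Other genes of the same machinery were looked at as lists. Of 23 tested assembly factors of complex IV, 1 was called, Higd1a, whose product is known to bind complex IV. Higd1a had a log2 fold change with T3 of 0.77 ± 0.15 in WT (edgeR's quasi-likelihood test, adjusted p = 0.00305) and 0.53 ± 0.15 in KO (adjusted p = 0.0603). Without WT T3 replicate 5 these were 0.58 ± 0.089 (adjusted p = 0.000446) and 0.51 ± 0.090 (adjusted p = 0.00172). Under T3 it was lower in KO by -0.54 ± 0.13 (adjusted p = 0.0151), or -0.35 ± 0.082 without the library (adjusted p = 0.00921), and its difference of responses was not called. Under vehicle it was not called, with -0.30 ± 0.16 in KO (adjusted p = 0.429) and -0.28 ± 0.095 without the library (adjusted p = 0.101). None of the 4 tested assembly factors of complex II, 6 of complex III and 5 of complex V was called.

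Of 6 subunits of complexes III to V encoded in the mitochondrial genome, 5 were tested and none was called with all libraries. Without replicate 5, mt-Co1, the catalytic subunit of complex IV, was lower in KO under T3 (-0.60 ± 0.18, edgeR adjusted p = 0.0475). The summed level of the list was 59930 CPM in WT T3 replicate 5, 99700 to 174200 CPM in the other WT T3 libraries and 63910 to 128400 CPM in KO T3. mt-Co2, mt-Co3 and mt-Atp6 averaged 0.297, 0.296 and 0.233 CPM beside 75700 CPM for mt-Co1, so they were hardly counted in this table, and the cause was not tested.

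Among 16 regulators of respiratory genes Esrrb, an estrogen-related receptor, was lower with T3 in WT (-0.45 ± 0.12, edgeR adjusted p = 0.0392), but not without replicate 5 (-0.36 ± 0.11, adjusted p = 0.06). Ppargc1a, the coactivator PGC-1alpha, had -0.15 ± 0.24 with T3 in WT and -0.011 ± 0.23 without replicate 5, and was not called. Without replicate 5 Nrip1, a corepressor, was lower in KO under T3 (-0.48 ± 0.14, adjusted p = 0.0382). None of the 16 was called for T3 in KO, with or without replicate 5.

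Markers of fibre type and of other cells are given beside these results, and their part in them was not tested. Under T3, 6 of 8 slow fibre markers were higher in KO and 6 of 10 fast fibre markers lower (7 and 7 without WT T3 replicate 5), and their summed levels did not overlap between the genotypes. Slow markers summed to 18510 to 27900 CPM in WT T3 and 41480 to 49220 in KO T3, and fast markers to 41240 to 57980 and 15660 to 30370. With T3 in WT, 0 of 8 slow and 1 of 10 fast fibre markers, Mylpf, were called, and Mylpf was not called without replicate 5 (adjusted p = 0.0593). In KO the counts were 0 and 1, Myh1, with and without that library. Under vehicle 5 slow fibre markers were higher and 7 fast ones lower in KO, either way. Of 6 endothelial markers, 2 were lower in KO under T3 (3 without replicate 5), and their sum was 640 to 824 CPM in WT T3 and 471 to 614.5 in KO T3. Of 6 smooth muscle and pericyte markers none was called with all libraries. Without replicate 5, 1 of them, Myh11, was lower with T3 in KO (-0.66, adjusted p = 0.0102) and in KO under T3 (-0.49, adjusted p = 0.0297), and all 6 lay below 0 in both. None of the 6 adipocyte, 6 fibroblast and 5 macrophage markers was called in any comparison, with or without replicate 5. Of 4 tested brown adipocyte markers 1, Cidea, was lower with T3 in both genotypes, and of 5 Schwann cell markers 1, Mbp, was lower with T3 in WT, while without replicate 5 it was Pmp22. Of 5 erythroid markers 1, Hbb-bt, was higher in KO under vehicle (with Alas2, 2 without replicate 5), where 1 library reached a sum of 982 CPM.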

How the data were processed

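Soleus RNA was extracted with RNeasy and made into TruSeq Stranded mRNA libraries read on a NovaSeq, per the labels' protocols. The authors deposited 1 table of raw counts per gene with gene lengths. Tools listed in the submitters' processing notes are featureCounts 1.6.4, STAR 2.7.3a and edgeR 3.26.8, with mm10 as genome. Which annotation release and which strand option served for counting is not given in the sources used here. GENCODE M21 was used for biotypes.

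The 22 libraries of 4 groups were fitted together with edgeR 4.0.16 (R 4.3.3): filterByExpr with a minimum count of 10, TMM scaling, the quasi-likelihood test, and Benjamini-Hochberg adjustment over all 15082 genes kept. CPM uses the TMM-scaled library sizes. The fit was tested on simulated counts with known changes. Of true log2 changes of 0.5 it recovered 7.22% to 17.9% between pairs of groups, and 4.08% for the difference of T3 responses. Of changes of 1 it recovered 56.4% to 69.7% and 21%. A gene that was not called may thus still have changed. Standard errors are the log2 fold change divided by the root of F. Ratios were compared with exact permutation tests over libraries (scipy 1.17.1). The filter kept at least 99.93% of each library's counts. The total count limits precision most for members of low level.

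Named members were those called in any comparison with or without WT T3 replicate 5, both genes of each isoform pair, the member of each complex with the smallest p in each comparison, and those that failed the filter; of the other lists, called genes and those with the smallest p for T3. Uqcrq, Uqcr11, Uqcrc2, Atp5d, Atp5e, Atp5g2, Atp5b, Atp5l, Cox4i2, Cox6b2 and Ppargc1a were named after their values were seen. The members and lists were chosen with earlier results of these data known. Alternatives were RLE scaling, total counts, removal of mitochondrial genome counts, other filters, DESeq2 1.42.0, limma 3.58.1 voom with quality weights, fits of only the groups compared, a gene length offset, and leaving out libraries. An offset for GC content and gene length was chosen after seeing the data. Promoters came from RefSeq (GRCm38.p6), and figures were drawn with matplotlib 3.10.9.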

Additional observations from a re-analysis of the deposited data

Results flagged for a closer look

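Of 112 groups of values looked at (the 20 named members, the summed levels of the 4 complexes and the 4 isoform ratios, by group), 16 held a library whose gap to its nearest neighbour was too large a part of the group's range by Dixon's test at the 95% level. Chance would mark about 1 in 20 independent groups of normally distributed values. These groups share libraries, and the sums and ratios share genes with the members, so the 16 cannot be set against that rate. WT T3 replicate 5 was the library in 14 of the 16, always as the highest of its group.

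In that library the summed level of complex III was 7129 CPM, where the next WT T3 library had 4731. Complex IV summed to 10660 CPM against 5515, and complex V to 20440 CPM against 13810. Among complex IV genes Cox7a1 was at 1086 CPM against 444, Cox7a2 at 415.9 against 234, Cox6a1 at 61.9 against 24.3, Cox7c at 258 against 157, Cox8a at 62.0 against 34.7 and Cox8b at 829.9 against 418.5. In complex V, Atp5g1 was at 866.5 CPM against 515, Atp5k at 574 against 236, Atp5mpl at 409 against 206 and Atp5o at 800.4 against 437. In complex II, Sdhb was at 1050 CPM against 682. Widely expressed and muscle isoforms were thus high together there.

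In KO T3 replicate 4, Atp5a1 was at 3889 CPM, where the next library of its group had 3080, and Atp5g1 was at 655 CPM against 409. The members took 2.92% of the counts of this library, the highest share after WT T3 replicate 5.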

How the results depend on the processing

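No paired analysis was possible because the replicate numbers follow accession order and the labels tie no library of one group to a library of another. For Cox7a1, Cycs, Atp5o and the isoform ratios, no called value changed direction under the alternatives. For other named genes and markers, fold changes are given only with and without WT T3 replicate 5. The number of members called moved most, and the cause was not tested. For T3 in WT, 2 members were called, against 1 without the count filter, 0 with only the groups compared, 0 with 5 T3 libraries left out (KO replicates 2 and 3, WT replicates 1, 3 and 5), 1 with the gene length offset and replicate 5 left out, and 0 to 3 with single libraries left out. For T3 in KO, 0 were called, against 1 with voom, with only the groups compared, with those 5 libraries left out, with the gene length offset (also without replicate 5) and with the GC content and gene length offset, and 0 to 1 with single libraries left out. For KO under vehicle, 0 were called, against 3 with voom, 1 with only the groups compared, 1 without the 5 libraries, 1 with the length offset without replicate 5, and 0 to 1 with single libraries left out. For KO under T3, 3 were called, against 1 with total counts, 1 with only the groups compared, 0 without the 5 libraries, 9 with the GC content and length offset, and 2 to 6 with single libraries left out, the 6 without WT T3 replicate 2. The share of all genes called moved as well. For KO under T3 it was 5.57%, against 9.67% with total counts, 3.73% with only the groups compared, 4.33% without the 5 libraries, 9.24% with the GC content and length offset and 5.82% without WT T3 replicate 2. With voom it was 9.76% (T3 in KO) and 13.1% (KO under vehicle). Over the other alternatives for T3 in KO, KO under vehicle and T3 in WT, single left-out libraries aside, it ran from 0.879% to 6.81%. Over the remaining ones for KO under T3 it ran from 2.16% without the count filter to 9.8% with voom. The median for KO under T3 was -0.066 without the 5 libraries, against -0.33. Without them the Cox7a1 to Cox7a2 difference with T3 was 0.54 in WT and 0.69 in KO, and that between genotypes under T3 was -0.47 (exact permutation, each adjusted p = 0.114). The groups compared still did not overlap, and fewer libraries raise the smallest p that an exact test can give. The loss of these calls therefore cannot be read as a change in the ratio. With single libraries left out the same differences ran from 0.53 to 0.71, 0.53 to 0.83 and -0.54 to -0.45. Low counts limit Cox6b2, Cox4i2 and the mitochondrial genes at under 1 CPM.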
